A study of Mus musculus with 4 samples.

Results

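The genes described are 10 genes by which mesenchymal cells and fibroblasts are commonly recognised, namely Thy1, Pdgfra, Pdgfrb, Fap, Prrx1, Prrx2, Meox2, Tcf21, S100a4 and Fbn1. They were chosen by name, as every non-control probe that the array assigns to them, and amounted to 12 probes and 21 spots of the 55681 probes and 59305 spots, or 10 of 34761 genes or transcripts. The study activated AKT, a kinase of growth factor signalling, while fibroblasts were being turned into induced pluripotent stem cells, and these genes measure how much of the starting cell's programme was present on each array. The cells were mouse embryonic fibroblasts pooled from male embryos at E13.5, and all groups carried the OE transgene (EGFP under the control of Oct4 sequences). All groups were infected with retroviruses for Oct4, Sox2 and Klf4 (OSK), or with these and AKT-MER, a myristoylated AKT fused to a modified estrogen receptor (OSKA). 4-hydroxytamoxifen (4OHT), the ligand that activates AKT-MER, or its ethanol vehicle was present from 3 days postinfection (dpi), and RNA was taken at 8 dpi.

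There were 4 arrays and 1 array per group, for OSK cells grown with 4OHT and without it, and for OSKA cells with 4OHT, called AKT-activated, and without it, called AKT-nonactivated. No group had a replicate, so no difference below has a replicate check and no p-value is given. The free-text description of the AKT-activated sample is worded for cells without activation, and its group was taken from its title. There was no array of fibroblasts before infection, so the values compare the infected populations with each other and not with the starting cells. Each array reads a mixed population, in which fewer fibroblasts and less of an RNA per fibroblast cannot be told apart.

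Fibroblasts are held together as a cell type by a small set of transcription factors and by the surface receptors and matrix proteins that they make. PDGF receptors alpha and beta are the receptor tyrosine kinases through which platelet-derived growth factors drive mesenchymal cells to divide and migrate, and they signal in part through PI3 kinase and AKT. When fibroblasts are reprogrammed, the mesenchymal programme is known to be silenced early, in a mesenchymal-to-epithelial transition, before the endogenous pluripotency genes are switched on. A bulk population at this stage normally holds reprogramming cells beside a majority that has not converted.

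The array reads each gene through a 60-base probe, and the end of a probe can show how near to the 3′ end of the transcript it lies. The last 30 bases of 6 probes are printed because the differences described below rest on them or because a gene had more than 1 probe. Capitals mark the polyadenylation signal AATAAA, on the strand of the probe. The signal lay within 3 of the 12 probes of these genes (25%) and in 5602 of all 55681 probes (10.1%). The place of a probe within exons or untranslated sequence was not analysed here. The coordinates are in mm9 (NCBI37), as the files give them.
Thy1 (chr9:43856591-43856650, plus strand): aggaaagaaaactgcacAATAAAaccaagc
Fap (chr2:62339002-62339060, minus strand): gtagcggaAATAAAgtcagatgctcaggtt
S100a4, brighter probe (chr3:90409908-90409967, plus strand): caaattcAATAAAaggttttgaaactatta
S100a4, dimmer probe (chr3:90409734-90409793, plus strand): attgccatgatgtgcaatgaattctttgag
Prrx1, brighter probe (chr1:165175375-165175434, minus strand): atgacctaattacaaaaaagggaatggcat
Prrx1, dimmer probe (chr1:165185408-165185467, minus strand): taaaagatctttctcttggtcaacctttag
The probes of Thy1, Fap and the brighter probe of S100a4 hold the signal. The dimmer probe of S100a4 lies upstream of the brighter probe on the same chromosome strand. The probes of Prrx1 were designed to different transcripts, NM_175686 for the brighter probe and NM_001025570 for the dimmer probe.

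Of the 10 genes, 9 were well above background on all 4 arrays, as were 19525 of all 34761 genes (56.2%). The exception was Tcf21. A level is the log2 of the intensity with the array's own 75th percentile of log2 intensity subtracted, so that a level of 3 is 8 times that percentile, and a level can be compared between arrays but not between genes. The error beside a value is that of the scanner software's error model. It was 0.20 (log2) for each difference between arrays of the 9 genes and covers the measurement on the arrays only, not the variation between cultures. The plot of levels by array shows the 10 genes.

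**Figure D1:**
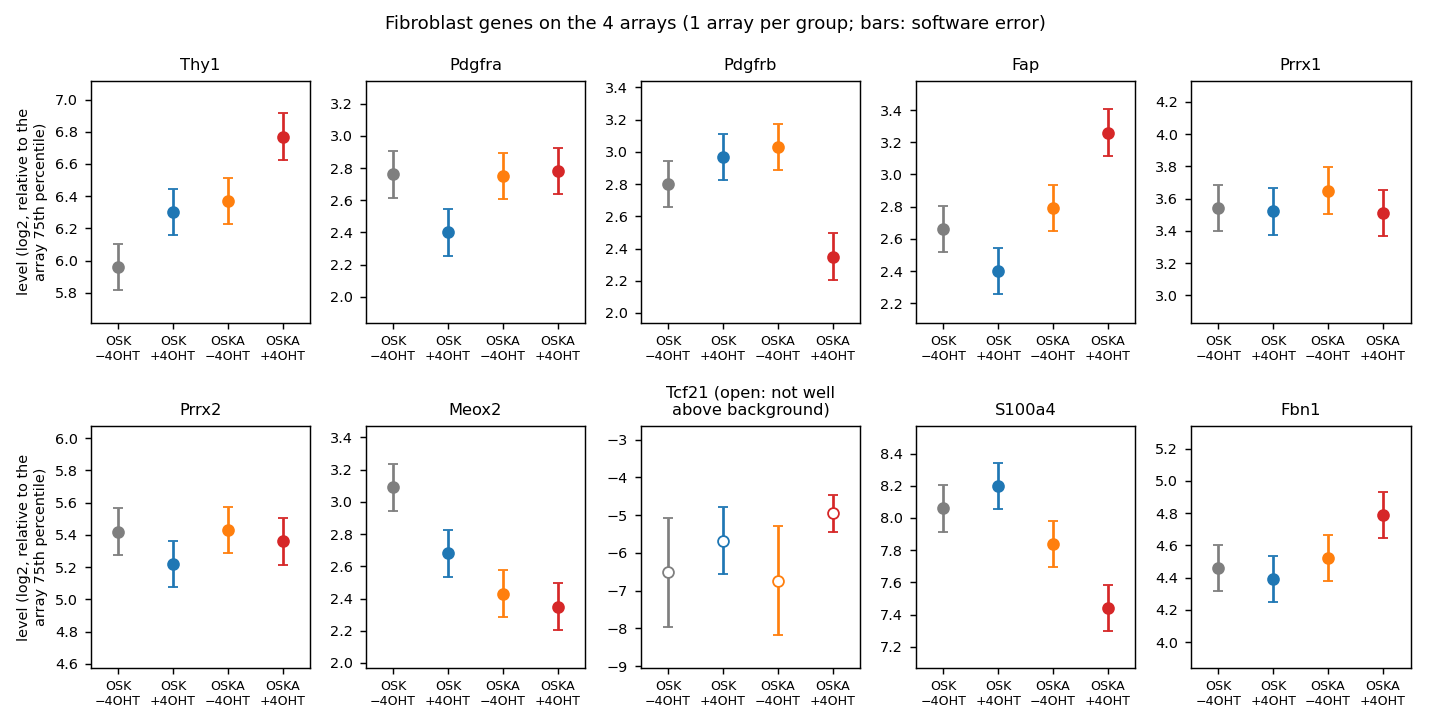
Level of each of the 10 genes (vertical axis, log2 relative to the array's 75th percentile) on the 4 arrays (horizontal axis), with the software error of the level as bars and open points where the probe was not well above background. The vertical axes of the 9 measured genes span the same number of log2 units, and in these the AKT-activated array is the highest for Thy1, Fap and Fbn1, at 6.77, 3.26 and 4.79, and the lowest for Pdgfrb and S100a4, at 2.35 and 7.44. With spike-in scaling Fbn1 is no longer highest there. The Tcf21 axis is wider and all its points are open.

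Thy1 is a surface glycoprotein anchored by a lipid and is widely used to sort fibroblasts, whose loss marks cells that have started to reprogramme. Its level was 5.96 in OSK cells without 4OHT, 6.30 in OSK cells with 4OHT, 6.37 in AKT-nonactivated cells and 6.77 in AKT-activated cells. The AKT-activated array was therefore the highest, also with spike-in scaling, and OSK cells without 4OHT the lowest, with a range of 1.76-fold, whereas AKT-nonactivated cells were the lowest with spike-in scaling. With 4OHT, Thy1 was 0.35 ± 0.20 higher in OSK cells and 0.40 ± 0.20 higher in OSKA cells. These values differed by 0.06 ± 0.29 with this scaling. With spike-in scaling the value in OSK cells was 0.04 and the difference of the effects 0.37. AKT-MER was accompanied by 0.42 ± 0.20 more without 4OHT and 0.47 ± 0.20 more with it, and the former value was -0.03 when arrays were scaled to spike-in probes.

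Pdgfra, the receptor for PDGF-AA and a marker of most embryonic mesenchyme, was read by a probe (chr5:75593888-75593947) that was spotted 10 times on each array. Its level was 2.76 in OSK cells without 4OHT, 2.40 in OSK cells with 4OHT, 2.75 in AKT-nonactivated cells and 2.78 in AKT-activated cells. Its spots ran from 2.64 to 2.84, from 2.21 to 2.56, from 2.62 to 2.90 and from 2.68 to 2.91 on these arrays, in the same order. With this scaling the spots of OSK cells with 4OHT did not overlap with those of any other array, and those of the other three overlapped with each other. With spike-in scaling, OSK cells without 4OHT kept at 2.64 to 2.84, the others ran from 1.91 to 2.26, from 2.18 to 2.46 and from 2.25 to 2.48, so that OSK cells without 4OHT stood apart and the other three overlapped in part. The SD among spots was 0.065, 0.110, 0.089 and 0.066, which covers the scatter of repeated spots on 1 array and not that between cultures. The difference with 4OHT was -0.36 ± 0.20 in OSK cells. In OSKA cells the difference with 4OHT was 0.02 ± 0.20. AKT-MER was accompanied by -0.01 ± 0.20 without 4OHT and 0.37 ± 0.20 with it. With spike-in scaling the value for 4OHT in OSK cells was -0.67 and that for AKT-MER without 4OHT -0.45.

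Pdgfrb, the receptor for PDGF-BB that is shared by fibroblasts and the mural cells of vessels, went the other way. Its level was 2.80 in OSK cells without 4OHT, 2.97 in OSK cells with 4OHT, 3.03 in AKT-nonactivated cells and 2.35 in AKT-activated cells. The AKT-activated array was lower than each of the others, by 0.45 from the nearest of them, while the others spanned 0.23. The difference with 4OHT was 0.17 ± 0.20 in OSK cells and -0.67 ± 0.20 in OSKA cells, where AKT-activated cells had 1.6-fold less. The difference between these effects was -0.84 ± 0.29, or -0.53 with spike-in scaling. Compared with OSK cells, OSKA cells had 0.23 ± 0.20 more Pdgfrb without 4OHT and 1.53-fold less with it (-0.62 ± 0.20). With spike-in scaling the small positive values became -0.14 for 4OHT in OSK cells and -0.22 for AKT-MER without 4OHT, and the negative values kept their sign.

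Fap, a serine protease of the cell surface that is characteristic of activated fibroblasts, showed the largest difference of the 9 genes in any of the 4 contrasts with the 75th percentile scaling. With spike-in scaling Meox2 (-1.1, AKT-MER without 4OHT), S100a4 (-0.89, AKT-MER with 4OHT) and Pdgfrb (-0.75, AKT-MER with 4OHT) lay further from 0 than Fap (0.73, AKT-MER with 4OHT). Its level was 2.66 in OSK cells without 4OHT, 2.40 in OSK cells with 4OHT, 2.79 in AKT-nonactivated cells and 3.26 in AKT-activated cells. AKT-activated cells were the highest, by 0.47 from the nearest array, and the other three spanned 0.39, which became 0.16 and 0.57 with spike-in scaling. Fap was 1.82-fold higher in AKT-activated cells than in OSK cells that had received the same 4OHT (0.86 ± 0.20). With 4OHT it was -0.26 ± 0.20 in OSK cells and 0.47 ± 0.20 in OSKA cells, and these effects were of opposite sign and differed by 0.73 ± 0.29, or 1.05 with spike-in scaling. Neither sign turned with any scaling.

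Among the transcription factors, Prrx1 and Prrx2 are paired-type homeodomain proteins of limb and craniofacial mesenchyme, and their levels varied least of the 9 genes with the 75th percentile scaling, although not with spike-in scaling. The brighter Prrx1 probe read 3.54 in OSK cells without 4OHT, 3.52 in OSK cells with 4OHT, 3.65 in AKT-nonactivated cells and 3.51 in AKT-activated cells, a range of 1.11-fold. The dimmer probe read 1.87, 1.57, 1.76 and 1.83 on these arrays. The probes did not put the arrays in the same order, and the largest single difference was -0.31 ± 0.20 with 4OHT in OSK cells, on the dimmer probe, where the brighter probe gave -0.02 ± 0.20. Prrx2 (chr2:30736678-30736737) read 5.42, 5.22, 5.43 and 5.36 on the 4 arrays, a range of 1.16-fold. Its difference with 4OHT was -0.21 ± 0.20 in OSK cells and -0.07 ± 0.20 in OSKA cells. The former was -0.51 with spike-in scaling.

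Meox2, a homeobox factor of somites and limb mesenchyme that restrains proliferation, was the only measured transcription factor of the group with a difference past 1.5-fold in any contrast. Its level (chr12:37905809-37905868) was 3.09 in OSK cells without 4OHT, 2.68 in OSK cells with 4OHT, 2.43 in AKT-nonactivated cells and 2.35 in AKT-activated cells. OSK cells without 4OHT were the highest, and the other three lay below them by at least 0.41. AKT-nonactivated cells had 1.57-fold less than OSK cells (-0.65 ± 0.20), both grown in vehicle without 4OHT. Adding 4OHT gave -0.41 ± 0.20 in OSK cells and -0.08 ± 0.20 in OSKA cells. Scaled to the spike-in probes, the value for AKT-MER without 4OHT was -1.1, past 2-fold, and that for 4OHT in OSK cells -0.71.

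Tcf21, a basic helix-loop-helix factor of visceral and epicardial mesenchyme (chr10:22537563-22537622), did not reach the level called well above background anywhere. Its intensities were 5.03, 7.35, 3.77 and 12.4, against 75th percentiles of 462, 377, 403 and 384 on the same arrays. No difference was taken for it, and its presence or absence at a lower level was not detectable with this probe.

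S100a4, a small calcium-binding protein known as fibroblast-specific protein although macrophages make it too, was read by 2 probes that ordered the arrays alike. The brighter probe gave 8.06 in OSK cells without 4OHT, 8.20 in OSK cells with 4OHT, 7.84 in AKT-nonactivated cells and 7.44 in AKT-activated cells. The dimmer probe gave 7.51, 7.64, 7.34 and 6.83. On both, AKT-activated cells were the lowest, by 0.40 and 0.51 from the nearest array, and the other three spanned 0.36 and 0.30. With spike-in scaling the step of the brighter probe was 0.39 and the span of the other three 0.66. AKT-activated cells had 1.69-fold less S100a4 than OSK cells with 4OHT by the brighter probe (-0.76 ± 0.20) and 1.75-fold less by the dimmer probe (-0.81 ± 0.20). The 4OHT difference was 0.14 ± 0.20 in OSK cells and -0.40 ± 0.20 in OSKA cells on the brighter probe, and 0.13 ± 0.20 and -0.51 ± 0.20 on the dimmer probe. With spike-in scaling the value in OSK cells became -0.16, and that in OSKA cells stayed below 0. The plot of the paired probes shows this agreement beside that of Prrx1.

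**Figure D2:**
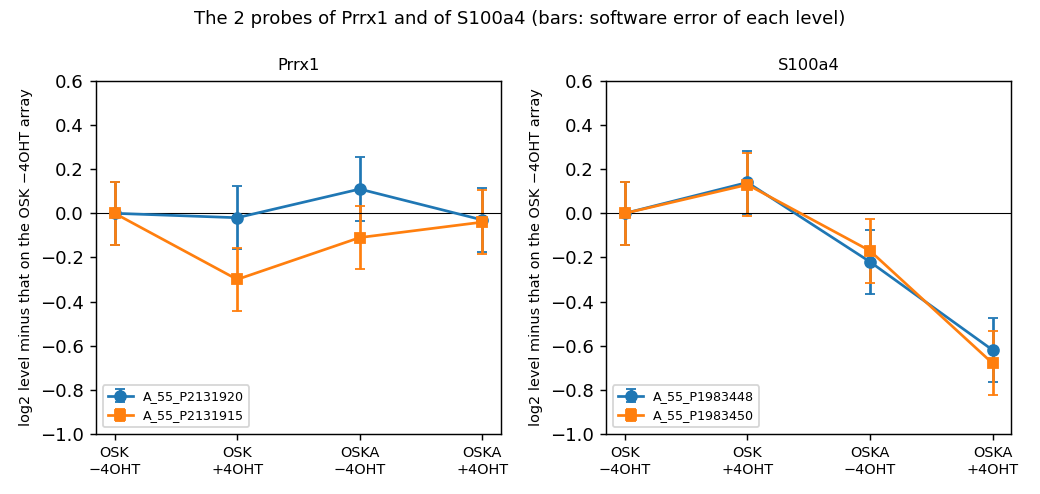
Log2 level on each array minus the level of the same probe in OSK cells without 4OHT (vertical axis) for the 2 probes of Prrx1 (left) and of S100a4 (right) on the 4 arrays (horizontal axis), with the software error of each level as bars. The S100a4 probes run together down to AKT-activated cells, with 4OHT differences in OSKA cells of -0.40 and -0.51, and the Prrx1 probes lie apart in OSK cells with 4OHT, at -0.02 and -0.31.

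Fbn1 encodes fibrillin-1, the backbone of the microfibrils that carry elastin and store latent TGF-beta. Its level (chr2:125126727-125126786) was 4.46 in OSK cells without 4OHT, 4.39 in OSK cells with 4OHT, 4.52 in AKT-nonactivated cells and 4.79 in AKT-activated cells. AKT-activated cells were the highest, by 0.28 from the nearest array, and the other three lay within 0.13. With spike-in scaling they were 0.11 below OSK cells without 4OHT, and the other three spanned 0.39. The difference was 0.28 ± 0.20 with 4OHT in OSKA cells and 0.41 ± 0.20 for AKT-MER with 4OHT, or 1.32-fold. In OSK cells 4OHT gave -0.08 ± 0.20.

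Taken over the group, the genes did not move in one direction with AKT activation. Of the 9 measured genes, 4 were higher and 5 lower with 4OHT in OSKA cells, with a median of -0.07 beside -0.03 for all 20284 genes measured, of which 45.2% were higher. For AKT-MER with 4OHT, 5 were higher and 4 lower with a median of 0.14, beside -0.05 for all 19830 genes, of which 42.9% were higher. For 4OHT in OSK cells the counts were 3 and 6 (median -0.08, all genes -0.00, 49.4% of them higher), and with spike-in scaling 1 and 8. For AKT-MER without 4OHT they were 6 and 3 (median 0.05, all genes -0.02, 47.0% of them higher), and with spike-in scaling 0 and 9. Spike-in scaling moved all genes together, by -0.31 for 4OHT in OSK cells, 0.01 for 4OHT in OSKA cells, -0.44 for AKT-MER without 4OHT and -0.13 for AKT-MER with 4OHT, so the place of these genes among all genes stayed as it was. The contrasts share arrays and are therefore given side by side without a comparison of their lists.

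**Figure D3:**
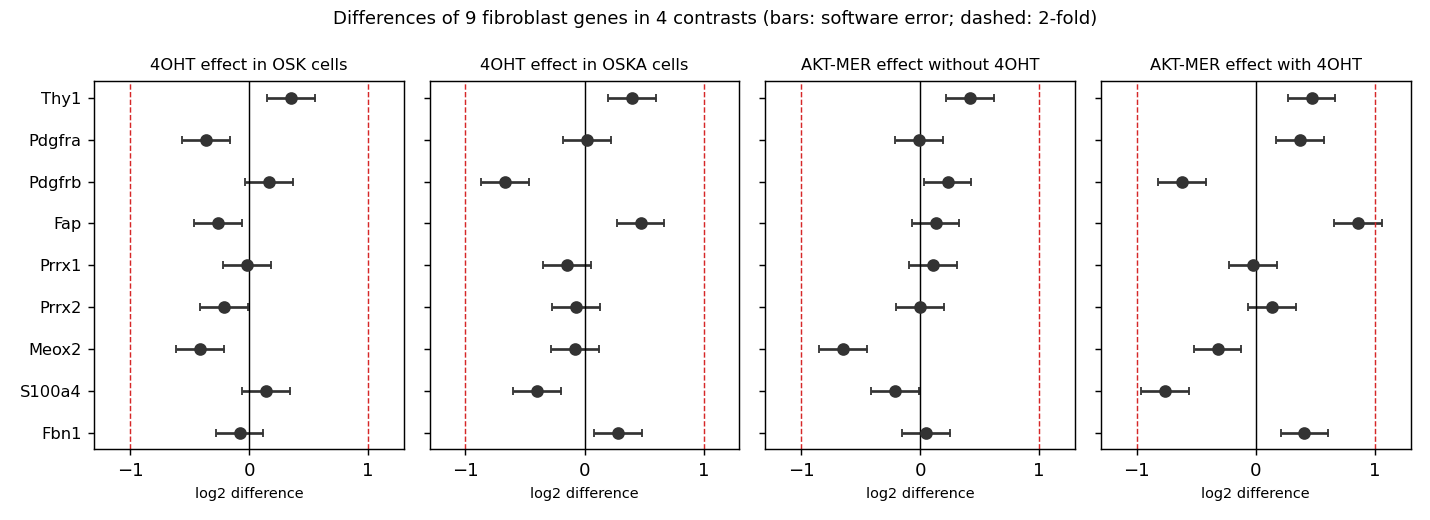
Log2 difference (horizontal axis) of the 9 measured genes (vertical axis) in the 4 contrasts, with the software error of 0.20 as bars and dashed lines at 2-fold. With the 75th percentile scaling drawn here no gene reaches a dashed line, and the nearest is Fap for AKT-MER with 4OHT at 0.86, whereas Meox2 passes it for AKT-MER without 4OHT with spike-in scaling (-1.1). The small positive values for AKT-MER without 4OHT turn negative with spike-in scaling.

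None of the 9 genes reached 2-fold in either direction in any contrast with the 75th percentile scaling. With spike-in scaling 1 did, Meox2 for AKT-MER without 4OHT (-1.1), beside 4.52% of all genes 2-fold lower. Of all measured genes, the share past 2-fold was 0.61% upward and 0.277% downward with 4OHT in OSK cells, 2.01% higher and 0.897% lower with 4OHT in OSKA cells, 1.09% higher and 0.927% lower for AKT-MER without 4OHT, and 1.92% higher and 1.12% lower for AKT-MER with 4OHT. At the shares with the 75th percentile scaling, 0 of 9 genes is near the background and is no result about the group. At 1.5-fold, no gene passed with 4OHT in OSK cells, where 4.33% of all genes were higher and 1.63% lower. With 4OHT in OSKA cells 1 gene was lower, Pdgfrb, and none was higher (all genes 4.62% and 5.06%). For AKT-MER without 4OHT 1 gene was lower, Meox2, and none was higher (all genes 3.99% and 5.66%). For AKT-MER with 4OHT 2 genes were lower, Pdgfrb and S100a4, and 1 was higher, Fap (all genes 5.1% and 5.46%). These counts changed with the scaling. With spike-in scaling Pdgfra and Meox2 were past 1.5-fold downward with 4OHT in OSK cells, beside 11% of all genes, and S100a4 joined Meox2 for AKT-MER without 4OHT, beside 29.0%. With quantile normalization, alone or after normexp, S100a4 was no longer past 1.5-fold for AKT-MER with 4OHT (-0.52 and -0.46), and Thy1 was past it upward.

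The AKT-activated array stood outside the other three for most of the genes, but this was common on the slide. It was the highest of the 4 arrays for 4 of the 9 genes (Thy1, Pdgfra, Fap and Fbn1), beside 27.3% of all 19525 genes above background on every array. For Pdgfra its margin was 0.01. It was the lowest for 4 (Pdgfrb, Prrx1, Meox2 and S100a4), beside 37.5%. For Prrx1 this rested on the brighter probe, and on the dimmer probe OSK cells with 4OHT were the lowest. With spike-in scaling the AKT-activated array was the highest for 2 genes, Thy1 and Fap, beside 8.44% of all genes, and the lowest for the same 4, beside 49.3%. OSK cells with 4OHT were the lowest for another 4 (Pdgfra, Fap, Prrx2 and Fbn1), beside 16.6%, and the highest for S100a4 alone, beside 22.1%. OSK cells without 4OHT were the highest for Meox2 (31.6%) and the lowest for Thy1 (27.2%). AKT-nonactivated cells were the highest for 3 genes (19.0%), Pdgfrb, Prrx1 and Prrx2, and the lowest for none (18.8%). With spike-in scaling OSK cells without 4OHT were the highest for 7 of the 9 genes, all but Thy1 and Fap, beside 78.8% of all genes. The step to the nearest array was wider than the whole span of the other three upward for Fap and Fbn1, beside 10.8% of all genes, and downward for Pdgfrb and S100a4, beside 15.5%. With spike-in scaling this held upward for Thy1 alone, beside 2.57% of all genes, and downward for Pdgfrb alone, beside 7.65%. With the 75th percentile Thy1 had a step of 0.40 against a span of 0.42. The median span over the 4 arrays was 1.6-fold for the 9 genes, 1.29-fold for all genes above background and 1.21-fold for the 4945 genes at least as bright as the dimmest of the 9. The groups occupied different positions of 1 slide, and a position effect cannot be told apart from a group effect.

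**Figure D4:**
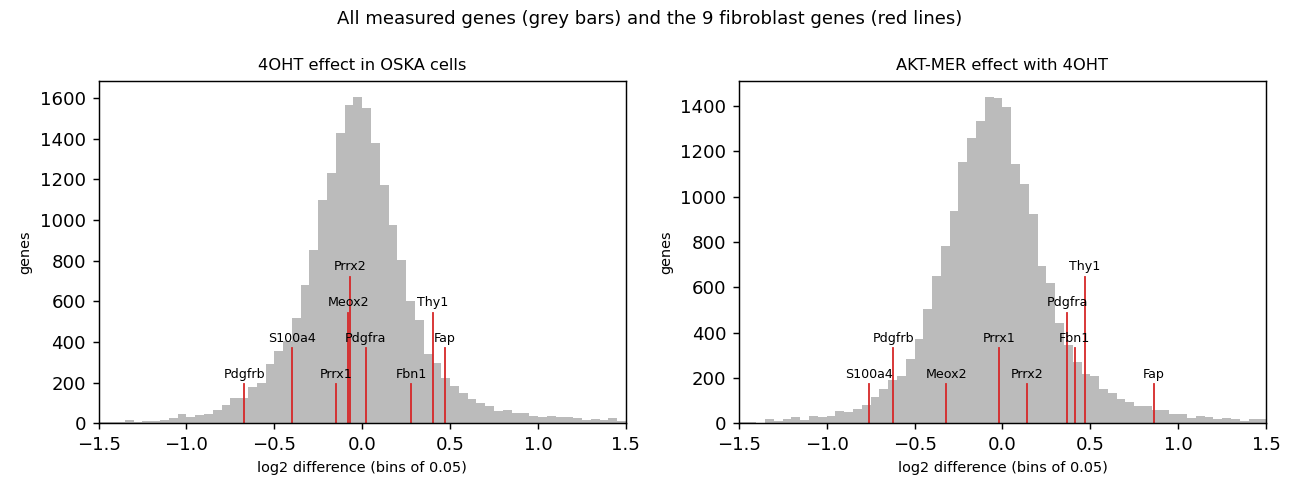
Number of genes (vertical axis) by log2 difference (horizontal axis, bins of 0.05) with 4OHT in OSKA cells (left) and for AKT-MER with 4OHT (right), as grey bars, with red lines of arbitrary height at the values of the 9 genes. Genes beyond 1.5 on either side are not drawn. The genes lie on both sides of 0, from -0.67 (Pdgfrb) to 0.47 (Fap) on the left and from -0.76 (S100a4) to 0.86 (Fap) on the right.

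Promoter windows were looked at for what the genes share beyond their expression. RefSeq windows (GRCm38.p6), from 250 bases before to 50 bases after the start, were at hand for 7 of the 10 genes. On either strand, 6 motifs were searched: the TATA box TATAAA (in 13.6% of all 32851 windows), CCAAT (37.4%), the GC box GGGCGG (35.7%), the forkhead motif GTAAACA (3.65%), the Snail-type E-box CAGGTG (20.2%) and the CArG box bound by serum response factor (1.63%), whose letters can overlap with those of a TATA box. The TATA box lay in 2 of the 7 windows, those of S100a4 and Meox2, and a GC box in 3, those of Prrx2, Meox2 and Fbn1. None of the other 4 motifs was found, and no motif was common to the 7. The windows of S100a4 and Fbn1 are printed because AKT-activated cells stood outside the other arrays for these genes in opposite directions with the 75th percentile scaling, with the motif in capitals.
S100a4 (chr3:90603520-90603819, plus strand): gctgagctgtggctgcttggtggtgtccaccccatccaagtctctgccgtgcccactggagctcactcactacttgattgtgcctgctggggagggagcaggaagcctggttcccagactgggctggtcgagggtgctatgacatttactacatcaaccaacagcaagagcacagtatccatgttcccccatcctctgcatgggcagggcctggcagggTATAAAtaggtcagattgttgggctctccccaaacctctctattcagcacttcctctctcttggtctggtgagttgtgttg
Fbn1 (chr2:125506389-125506688, minus strand): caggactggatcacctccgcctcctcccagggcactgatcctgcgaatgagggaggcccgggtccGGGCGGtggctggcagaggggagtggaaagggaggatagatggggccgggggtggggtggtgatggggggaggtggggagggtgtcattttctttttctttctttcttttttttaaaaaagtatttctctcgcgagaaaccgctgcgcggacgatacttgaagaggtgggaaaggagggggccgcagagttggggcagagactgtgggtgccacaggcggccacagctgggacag
In S100a4 the TATA box runs from 31 to 26 bases before the start, and 55.3% of the window is G or C. In Fbn1 the GC box runs from 185 to 180 bases before the start, and 60.3% is G or C, beside a median of 52.7% over all windows. A match describes the letters only.

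Genes of the same families and pathways were set beside the 10. Among the PDGF genes, which encode the ligands of the PDGF receptors and the receptor-like protein Pdgfrl, 5 of 5 were measured and 5 were lower with 4OHT in OSKA cells, with a median of -0.32. Pdgfd, a ligand of Pdgfrb, differed most at -1.08. By the brightest probes Pdgfb differed least at -0.09, but its other probe gave -0.32. The receptor Pdgfrb was lower in the same contrast (-0.67) and Pdgfra was not (0.02). In OSK cells 4OHT gave 0.39 for Pdgfd and 3 higher and 2 lower of the 5, which became 2 and 3 with spike-in scaling.

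Of 24 other mesenchymal transcription factors, 23 were measured with 4OHT in OSKA cells, 7 higher and 16 lower with a median of -0.09. The extremes were the forkhead factors Foxd1 at 0.71 and Foxd2 at -0.51, and none of the 23 reached 2-fold. The remaining factor, Foxf2, was well above background in AKT-nonactivated cells (-2.76) and not in AKT-activated cells (-4.97). Taken to the lowest level so called on the AKT-activated array, it was 4.02-fold lower there, or 1.56-fold lower compared with OSK cells with 4OHT. OSK cells without and with 4OHT read -3.98 and -4.13, so AKT-nonactivated cells stood highest. With 4OHT in OSK cells 19 of 24 were lower (median -0.21), and Prrx1, Prrx2 and Meox2 were also below 0 there, at -0.02, -0.21 and -0.41. Of all genes 50.6% were lower in that contrast. With spike-in scaling, which moved all genes by -0.31 there, 24 of 24 were lower. Of 15 other surface proteins of stromal cells, 10 were higher and 5 lower with 4OHT in OSKA cells (median 0.09), where Nt5e, the ecto-5′-nucleotidase CD73, was the 1 gene past 2-fold at 1.5 and the integrin Itgb1 was the lowest at -0.26. Thy1 and Fap, at 0.40 and 0.47, lay on the same side as the median of that list and Pdgfrb, at -0.67, below all of it.

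Of 17 microfibril and elastic fibre genes, 5 were higher and 12 lower with 4OHT in OSKA cells, with a median of -0.27. Fbn1 was at 0.28, and its paralog Fbn2, a gene of the list named here after its values were seen, was at 0.31 (0.22 on its other probe). Ltbp2 was the lowest at -0.94 and the latent TGF-beta binding protein Ltbp1 the highest at 0.50. Of 12 other S100 genes, 9 were measured, 4 higher and 5 lower with a median of -0.05. S100a14 was well above background in AKT-activated but not in AKT-nonactivated cells. Taken to the lowest level so called on the AKT-nonactivated array, it was 2.39-fold higher. S100a3, a neighbour of S100a4 in the S100 gene cluster, was at -1.06, and S100b, which lies outside that cluster and is known from glia, at 1.56. For AKT-MER with 4OHT, where S100a4 was at -0.76, 2 of the 9 were higher and 7 lower (median -0.4). Of all genes 57.1% were lower there. With spike-in scaling 1 of the 9 was higher and 8 were lower (median -0.53). A list of 12 genes of the fibroblast matrix and related proteins includes the intracellular filament protein Vim and the collagen chaperone Serpinh1. Of these, 6 were higher and 6 lower with 4OHT in OSKA cells (median 0.02). The proteoglycans Lum and Vcan were past 2-fold at 1.13 and 1.07, and Thbs1 was the lowest at -0.71. For Vcan this rested on the brightest probe, and its other probes gave 0.83 and 0.87.

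**Figure D5:**
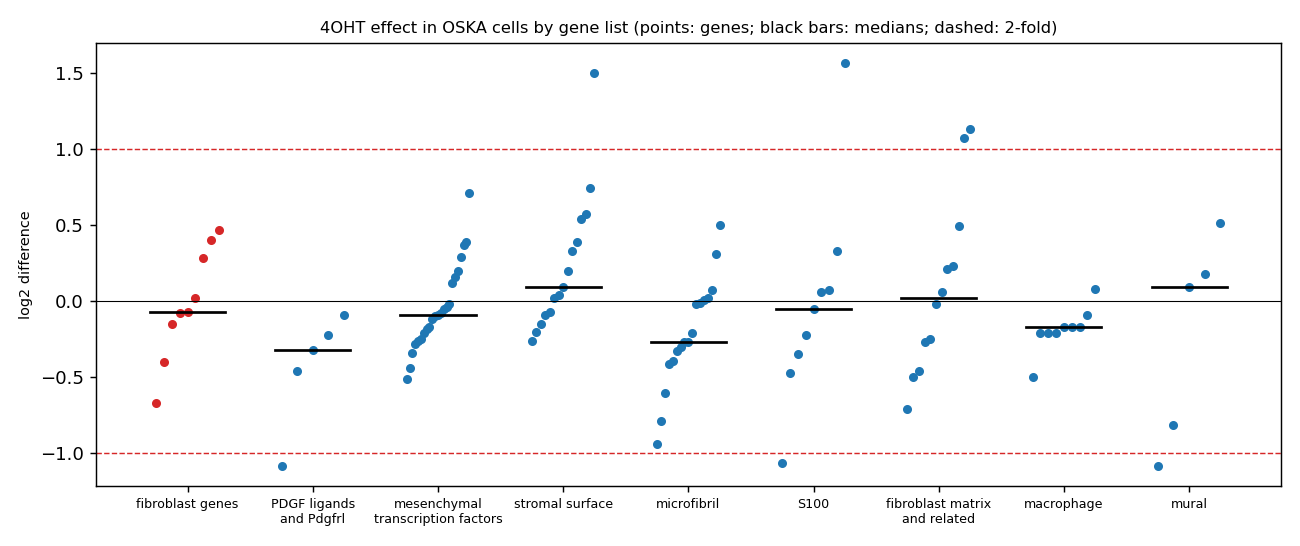
Log2 difference with 4OHT in OSKA cells (vertical axis) for the measured genes of 9 lists named on the horizontal axis (points, with black bars at the median and dashed lines at 2-fold), with the 9 fibroblast genes in red. The medians drawn lie between -0.32 for the PDGF genes and 0.09 for the surface list, and the fibroblast genes have a median of -0.07.

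Markers of other cells that such a culture could hold were read on the same arrays. All 9 macrophage markers were well above background on all 4 arrays, and their summed level was 246 and 353 times the 75th percentile in OSK cells without and with 4OHT, and 341 and 300 times in AKT-nonactivated and AKT-activated cells. With 4OHT in OSKA cells 8 of the 9 were lower (median -0.17), from Itgam at -0.50 to Adgre1 at 0.08 (-0.11 on its other probe). In this contrast S100a4 was at -0.40 and Pdgfrb at -0.67. With 4OHT in OSK cells 8 of 9 were higher (median 0.60, or 0.29 with 7 higher after spike-in scaling), where S100a4 was at 0.14. For AKT-MER without 4OHT 8 of 9 were higher (median 0.56, or 0.11 with 5 higher after spike-in scaling), where S100a4 was at -0.21. For AKT-MER with 4OHT 8 of 9 were lower (median -0.19), where S100a4 was at -0.76. Their part in the values of S100a4 and the other genes was not tested. Of 7 mural cell markers, 5 were measured with 4OHT in OSKA cells, 3 higher and 2 lower, from Acta2 at -1.08 to Rgs5 at 0.51, and Myh11, the smooth muscle myosin, was not above background on any array. Cnn1 was at -0.81, Cspg4 at 0.09 and Mcam at 0.18 (-0.30 on its other probe). Des was well above background in AKT-nonactivated but not in AKT-activated cells, and 1.64-fold lower in the latter by its dim reading there (-4.74). The summed mural level was 64.9, 79.7, 89.7 and 62.4 on the 4 arrays, with 42.8% to 63.1% of it from Acta2, and the part of mural cells in the Pdgfrb value was not tested.

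Thy1 is also made by T cells and neurons. Of 7 T-cell markers 3 were measured with 4OHT in OSKA cells, 2 higher and 1 lower (median 0.29). Lck was at 0.42, Cd3e, which was well above background on all 4 arrays, at 0.29, and Cd4 at -0.71. Cd3d, Cd8a and Cd2 were not above background on any array. The summed T-cell level ranged from 3.85 to 5.13, with 51.0% to 68.3% of it from Cd4. Of 7 neural markers 6 were measured with 4OHT in OSKA cells, 4 higher and 2 lower (median 0.18), with Stmn2 the lowest at -0.35. The summed neural level ranged from 12.1 to 18, with 64.8% to 79.3% of it from Stmn2. The part of T cells and neural cells in the Thy1 values was not tested. Of 7 endothelial markers 3 were measured, from Kdr at 0.23 (-0.24 on its other probe) to Tek at -0.44. Cdh5 and Tie1 were not above background on any array. Of 6 muscle markers only Mymk was measured, at -0.26, and Myod1, Myf5 and Myog were not above background.

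Epithelial and pluripotency genes, which reprogramming cells gain as they lose the fibroblast genes, did not move as a group with 4OHT in OSKA cells. Of 12 epithelial genes 9 were measured with 4OHT in OSKA cells, 5 higher and 4 lower (median 0.06), from Krt18 at 0.85 to Esrp1 at -1.27. Of 13 pluripotency genes 10 were measured, 5 higher and 5 lower (median -0.05), from Fbxo15 at 1.29 to Tdgf1 at -0.73. Beside them the 9 fibroblast genes had a median of -0.07 in this contrast. Zfp42, Esrrb and Dppa4 were not above background on any array. For AKT-MER without 4OHT 2 epithelial genes were higher and 6 lower (median -0.17), with 2 past 2-fold lower. There 3 pluripotency genes were higher and 7 lower (median -0.16), beside 53.0% of all genes lower. The summed epithelial level was 15.4, 12.9, 10.2 and 7.71 on the 4 arrays, with 47.7% to 70.3% of it from Krt19. The transgene was seen through the brightest probe of Esr1, which was not above background on either OSK array and read 3.11 and 3.32 in AKT-nonactivated and AKT-activated cells, so the OSK and OSKA labels were borne out, while the 4OHT labels could not be checked in this way.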

How the data were processed

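Cy3-labelled cRNA from 100 ng of total RNA was hybridised to 4 single-channel Agilent arrays on 1 slide. The deposited scanner files hold an intensity for each spot that the authors obtained with Agilent Feature Extraction 10.7.3.1, corrected for background and for spatial and multiplicative trends and not normalized between arrays. The deposited series matrix holds the same intensity, rounded (ratio to the scanner value 0.995 to 1.005).

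The log2 intensity was reduced by the 75th percentile of each array. Marked outlier spots were left out, spots of a probe were averaged, and a gene was represented by its brightest probe. Of all spots that were not controls, 52.4% to 55.4% were well above background on the 4 arrays. Differences were taken only where a probe was well above background on both arrays, with the error of the software's error model. Where a gene was so called on 1 array only, a fold was taken to the lowest level so called on the other array, or to its own level if higher. Genes not so called can read above that lowest level, so such a fold is not a strict minimum. Genes were counted at 2-fold. The precision is limited by the number of arrays (1 per group), and no test was run. Probes were named from the files and a RefSeq table. Motifs were searched in RefSeq promoter windows.

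For 14 further gene lists, the largest rise and fall with 4OHT in OSKA cells, and any gene past 2-fold there up to 4 a list, are named. The value of 1 gene chosen by this rule is not reported here. Genes named for an absent signal were chosen after their values were seen. The 10 genes and all lists were chosen with earlier results of these data known. Scaling, background, filter, probe summary, source table and threshold were varied in 9 alternatives. The span of genes as bright as the dimmest of the 9 and the order of the arrays, counts at 1.5-fold and spots under the alternatives were added after the data were seen. The procedure was tested on simulated data. Python 3.11.15, pandas 2.3.3, numpy 2.4.6, R 4.3.3 and limma 3.58.1 were used.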

Additional observations from a re-analysis of the deposited data

Results flagged for a closer look

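The effect of 4OHT on Fap was of opposite sign in OSK cells (-0.26) and OSKA cells (0.47), a difference of 0.73 on the log2 scale, with both effects larger than their software error of 0.20. The difference was not tested, since each group had 1 array.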

How the results depend on the processing

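Under the 9 alternatives, 104 of 112 alternative values of the group's medians and counts stayed within the range set for them. The others were as follows. Scaling to 7 spike-in probes moved the median of the genes from -0.08 to -0.38 for 4OHT in OSK cells and from 0.05 to -0.39 for AKT-MER without 4OHT, where 1 gene (Meox2, -1.1) became 2-fold lower. Without a filter on dim probes 1 gene (Tcf21, 1.79) was 2-fold higher with 4OHT in OSKA cells, from intensities not above background. A threshold of 1.5-fold gave 1 gene lower with 4OHT in OSKA cells, 1 lower for AKT-MER without 4OHT, and 2 lower and 1 higher for AKT-MER with 4OHT. Normexp with quantile normalization brought S100a4 for AKT-MER with 4OHT from -0.76 to -0.46, below 1.5-fold. The mean of both Prrx1 probes gave 0.12 for AKT-MER with 4OHT in place of -0.02. The order of the arrays, computed under the alternatives after the data were seen, changed for most genes with spike-in scaling, and Prrx1 was no longer lowest in AKT-activated cells with quantile normalization or the mean of its probes. No paired analysis was possible because each group had 1 array. With 1 array per group no array could be left out. A difference smaller than 0.20 lay within the measurement error as the scanner software models it.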
